A study of Mus musculus with 6 samples.

Results

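Transcript levels were compared for 10 genes, 8 cytokines and cytokine antagonists (Tnf, Il6, Il10, Il4, Il1a, Il1rn, Il12b and Il23a) and 2 inducible inflammatory enzymes (Nos2 and Ptgs2), in microglia isolated after acute ischemic stroke (AIS). They were found on the arrays by the transcript accession of each probe, whatever its signal, which gave 13 probes for 10 of the 23462 genes that could be named. Microglia had been selected from the brain through the surface receptor P2RY12 with magnetic beads. The 3 control arrays came from PGC-1αf/f mice, littermates without Cre that carried an inducible, loxP-flanked allele of the transcriptional coactivator PGC-1α joined to eGFP. The 3 mPGC-1α arrays came from mice that carried, in addition, a tamoxifen-inducible Cre recombinase in the Cx3cr1 locus, so that PGC-1α was to be overexpressed in Cx3cr1-expressing cells. All 6 samples were labelled as male, 10 weeks old and taken after AIS, and the time after AIS was not stated for the arrays. The question was whether these mediators differed between microglia with and without this Cre.

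Activated microglia release cytokines, small secreted proteins that bind receptors on neighbouring cells. TNF, IL-1α and IL-6 are proinflammatory, the shared p40 chain and the p19 chain form IL-12 and IL-23, and IL-10 and IL-4 dampen inflammatory activation. IL-1 receptor antagonist, encoded by Il1rn, occupies the IL-1 receptor without signalling. Nos2 and Ptgs2 encode inducible nitric oxide synthase and cyclooxygenase-2, which make nitric oxide and the precursor of prostaglandins. Many of these genes are transcribed on demand through NF-κB and AP-1 and their mRNAs are short-lived.

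Levels are given as log2 of the background-subtracted signal, from which each array's own 75th percentile was subtracted, so 0 is the level of a bright probe and each unit is a doubling. Between 71.0% and 86.5% of the 59305 spots per array were well above background. Array 3 of each group lay on slide 2 and was lower, at 73.5% for control and 71.0% for mPGC-1α. Arrays 1 and 2 of each group, on slide 1, ranged from 83.5% to 86.5%. Control array 2 stood apart from the others in sex-linked genes. Xist, the X-inactivation transcript, was at -4.83 on that array and between -0.57 and -0.11 on the other arrays, and all 4 Y-linked genes examined were detected on it, against 1 or 2 on the others. By these genes control array 2 fitted the label male, whereas the other arrays went against it. Since the arrays differed in this way, differences without control array 2 are given for those of the 10 genes measured on it, where enough values remained. For the related genes they are given only for the median of the signalling list and for genes that passed in that setting. Other differences of related and marker genes rest on all arrays. Ppargc1a, the gene for PGC-1α, was not higher in mPGC-1α samples by its brighter probe (difference -0.31, SE 0.24, adjusted p = 0.80). Nor was it by the other (-0.41, SE 0.27, adjusted p = 0.77). Whether these probes report the introduced allele is not known. Cx3cr1, the locus that carries the Cre, measured 4.19, 3.66 and 4.11 in controls and 2.79, 2.36 and 3.13 in mPGC-1α samples by its only tested probe (difference -1.23, adjusted p = 0.68). Its brighter probe was measured on 2 control arrays and 1 mPGC-1α array and was not tested. All 12 microglial markers were well above background on every array that measured them. P2ry12 and Tmem119 were each measured on only 1 control and 2 mPGC-1α arrays and were not tested. The summed level of neuronal markers (12 genes) ranged from 41.6 to 67.6 in controls and from 66.9 to 78.6 in mPGC-1α samples, in multiples of the 75th percentile. Oligodendrocyte markers (8 genes) ranged from 4.95 to 13.8 and from 15.5 to 26.0, and astrocyte markers (9 genes) from 10.7 to 16.1 and from 17.1 to 55.9. Monocyte and macrophage markers (8 genes) overlapped, at 37.0 to 51.0 and 27.9 to 56.7, as did neutrophil markers (2 genes), at 18.5 to 29.2 and 10.9 to 34.2. Microglial markers (6 genes) overlapped too, at 104 to 122 and 101 to 117. Such sums follow the brightest genes, for neurons mostly Snap25 (difference 0.30). By gene, the median difference was 0.92 for neuronal (11 higher, 1 lower), 0.87 for oligodendrocyte (10 higher, 0 lower) and 0.67 for astrocyte markers (9 higher, 0 lower). It was -0.09 for microglial (4 higher, 6 lower), -0.16 for monocyte and macrophage (2 higher, 10 lower) and 0.04 for neutrophil markers (4 higher, 2 lower). For lymphocyte markers it was 0.16 (6 higher, 3 lower) and for endothelial and mural markers 0.26 (7 higher, 2 lower). The part of these cell types in the values below was not tested, and with bulk RNA fewer cells of a type and less RNA per cell cannot be told apart.

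The promoters of the genes on which the results turn are shown as the 250 bases before the annotated start, taken from RefSeq (GRCm38.p6), which held 7 of the 10 genes. Il10, Il23a and Nos2 had no entry and were not searched. Il1rn is shown for the largest difference in the family, and Tnf, Il1a and Il6 as the proinflammatory members in which a motif was found. Il6 was the only 1 of the 7 searched genes with a κB match. Capitals mark the motifs searched on both strands, which were the κB consensus, the AP-1 motif TGANTCA and the TATA motif TATAAA.
Tnf (chr17:35202008-35202257, minus strand): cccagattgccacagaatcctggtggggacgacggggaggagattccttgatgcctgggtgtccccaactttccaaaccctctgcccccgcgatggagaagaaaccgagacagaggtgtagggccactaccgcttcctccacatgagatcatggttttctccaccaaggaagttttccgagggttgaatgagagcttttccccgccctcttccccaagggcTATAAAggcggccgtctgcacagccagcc
Il1a (chr2:129309973-129310222, minus strand): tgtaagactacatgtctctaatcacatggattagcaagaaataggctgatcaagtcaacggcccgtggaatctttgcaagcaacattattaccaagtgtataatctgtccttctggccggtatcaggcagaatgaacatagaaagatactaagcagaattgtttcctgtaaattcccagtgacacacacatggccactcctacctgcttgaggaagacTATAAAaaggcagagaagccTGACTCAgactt
Il6 (chr5:30012864-30013113, plus strand): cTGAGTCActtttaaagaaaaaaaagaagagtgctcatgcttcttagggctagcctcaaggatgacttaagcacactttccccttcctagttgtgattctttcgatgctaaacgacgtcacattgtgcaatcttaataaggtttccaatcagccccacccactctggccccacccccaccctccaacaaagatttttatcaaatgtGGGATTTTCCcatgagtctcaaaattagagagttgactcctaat
Il1rn, first start (chr2:24336610-24336859, plus strand): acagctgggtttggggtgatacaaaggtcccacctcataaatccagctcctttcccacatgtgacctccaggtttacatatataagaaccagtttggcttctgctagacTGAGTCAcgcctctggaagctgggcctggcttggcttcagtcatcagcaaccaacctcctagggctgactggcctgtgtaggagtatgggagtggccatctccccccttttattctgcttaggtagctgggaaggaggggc
The Tnf window held TATAAA with 23 bases between it and the start, and the Il1a window held TATAAA at 26 and an AP-1 match at 5 bases. The Il6 window held the κB match at 34 bases and an AP-1 match at 242, and the Il1rn window an AP-1 match at 134 bases. Windows of the same length held the κB consensus in 7.25%, TGANTCA in 6.75% and TATAAA in 12.4% of all 32851 promoters. None of the 3 motifs lay in the windows of Il4, Il12b, Ptgs2 or the other Il1rn starts. These matches describe the letters only.

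Of the 13 probes, 8 were well above background on all 6 arrays, and 11 probes of 9 genes could be tested. No member probe passed an adjusted p of 0.05, nor did any of the 40745 probes tested (0% called by limma). Before adjustment, p was below 0.05 for 1078 probes that were higher in mPGC-1α samples and 1843 (4.52%) that were lower, and the latter held a single member probe, of Il1rn. It was also the only member probe with 6 values whose groups did not overlap, which held in the lower direction for 4.66% of all 36995 such probes. The brightest probe was higher in mPGC-1α samples for 4 genes and lower for 5, and the median of these differences was -0.01, against 0.11 over all 18222 genes. Il10 met the detection filter through the control group alone. The family varied more from array to array than most genes, with a median SD over the 6 arrays of 0.88 against 0.32 for all genes.

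**Figure D1:**
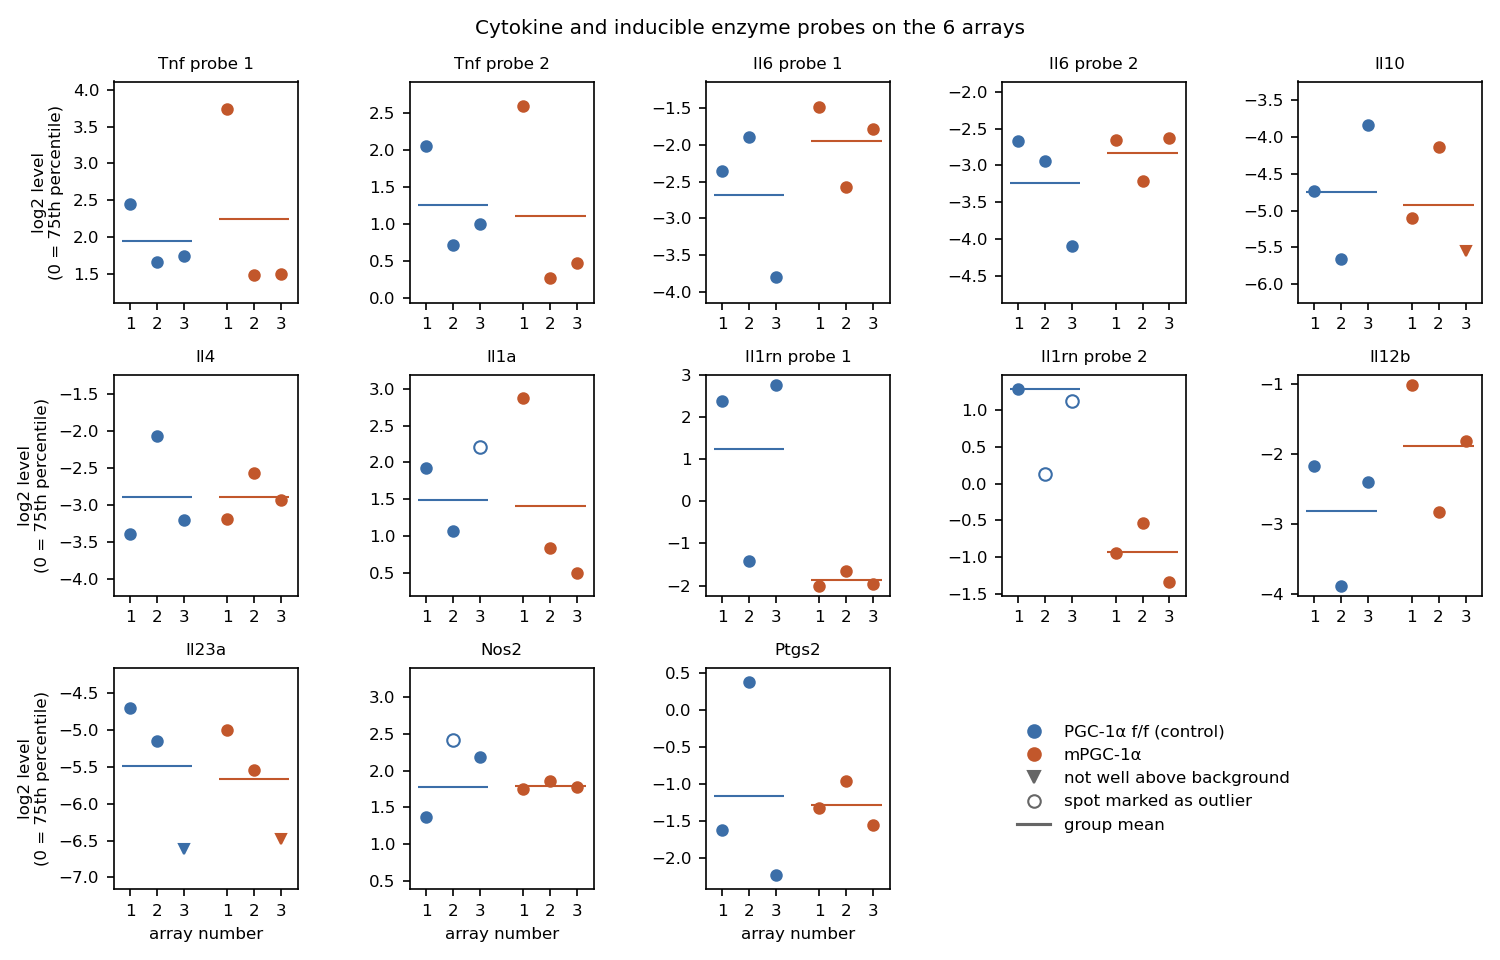
Log2 level (y axis, 0 is the array's 75th percentile) of each probe on the 3 control (blue) and 3 mPGC-1α (orange) arrays, with lines at group means over measured spots, open circles for spots marked as outliers and triangles for spots not well above background. Il1rn was high on control arrays 1 and 3 only, at 2.40 and 2.78 by probe 1, and the Tnf probes and Il1a were highest on mPGC-1α array 1.

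Tnf, encoding the proinflammatory cytokine TNF, was measured at 2.45, 1.66 and 1.74 on control arrays 1 to 3 and at 3.73, 1.49 and 1.50 on mPGC-1α arrays 1 to 3 (probe A_51_P385099). Array 1 was the highest of each group, and the groups overlapped. The difference was 0.29 (SE 0.54, 95% interval -0.93 to 1.52, adjusted p = 0.92), or 1.22-fold. The other Tnf probe (A_55_P2740937) ranked the arrays in the same order, at 2.05, 0.71 and 1.00 in controls and 2.60, 0.27 and 0.46 in mPGC-1α samples, with a difference of -0.14 (SE 0.59). The sign of the Tnf difference thus depended on the probe. It also depended on mPGC-1α array 1, without which probe A_51_P385099 gave -0.45. Leaving out control array 2 gave 0.15 for that probe and -0.41 for the other.

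Il1a, encoding IL-1α, an alarmin and ligand of the IL-1 receptor, was at 1.92 and 1.07 on control arrays 1 and 2 and at 2.87, 0.85 and 0.51 on the mPGC-1α arrays. The spot of control array 3 was marked as an outlier and left out, and its signal corresponded to 2.21. The difference was -0.09 (SE 0.64, 95% interval -1.55 to 1.38, adjusted p = 0.98). As for Tnf, array 1 was the higher of the measured controls and the highest of the mPGC-1α group. Compared within the pairs of arrays with the same number, arrays 1 differed by 0.95 and arrays 2 by -0.22.

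Il6, encoding IL-6, was measured by probe A_55_P1997756 at -2.36, -1.90 and -3.80 in controls and -1.49, -2.58 and -1.79 in mPGC-1α samples. Control array 3 was the lowest of all, and the groups overlapped. The difference was 0.73 (SE 0.49, 95% interval -0.38 to 1.84, adjusted p = 0.77), or 1.66-fold. The second Il6 probe (A_55_P2733612) was at -2.67, -2.94 and -4.09 in controls and -2.65, -3.21 and -2.63 in mPGC-1α samples, a difference of 0.41 (SE 0.40, adjusted p = 0.84). Without control array 3 the probes gave 0.18 and -0.02, so the difference rested on that array. Without control array 2 they gave 1.13 (adjusted p = 0.22) and 0.55 (adjusted p = 0.45). On slide 2, which held array 3 of each group, they differed by 2.01 and 1.47, and on slide 1, which held arrays 1 and 2, by 0.09 and -0.12.

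Il12b, encoding p40, was at -2.17, -3.88 and -2.39 in controls and -1.02, -2.82 and -1.81 in mPGC-1α samples. The mPGC-1α array was the higher of each pair with the same number, by 1.16, 1.06 and 0.58, although the groups overlapped. The difference was 0.93 (SE 0.55, 95% interval -0.30 to 2.16, adjusted p = 0.75), or 1.91-fold, and the exact permutation p was 0.40. When the replicate number entered the fit as a block, the unadjusted p was 0.006 and the adjusted p 0.18. In that fit, 11.8% of all probes had an unadjusted p below 0.05 and 1 probe (0.00245%) passed after adjustment. Without control array 2, the lowest of all 6, the difference was 0.40.

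Il23a, encoding the p19 chain of IL-23, was well above background on 2 of 3 arrays in each group and was not tested. Its values were -4.70, -5.15 and -6.62 in controls and -5.00, -5.54 and -6.48 in mPGC-1α samples, and array 3 of each group was not well above background. The groups overlapped, with a difference in means of -0.18 and an exact permutation p of 0.80, and leaving out control array 2 gave -0.013.

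Il10, encoding the anti-inflammatory cytokine IL-10, was at -4.73, -5.66 and -3.84 in controls and -5.10, -4.14 and -5.55 in mPGC-1α samples, the last of which was not well above background. The order of the arrays differed between the groups, and the pairs with the same number differed by -0.37, 1.52 and -1.71. The difference was -0.19 (SE 0.53, 95% interval -1.39 to 1.01, adjusted p = 0.95). Leaving out control array 3 gave 0.27, and leaving out control array 2 gave -0.65.

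Il4, encoding the cytokine IL-4 that signals through STAT6, was at -3.40, -2.07 and -3.21 in controls and -3.19, -2.57 and -2.94 in mPGC-1α samples. Array 2 was the highest of each group. The difference was -0.01 (SE 0.39, 95% interval -0.89 to 0.87, adjusted p = 1.00), and leaving out control array 2 gave 0.40. The interval reached nearly a doubling in either direction.

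Il1rn, encoding the IL-1 receptor antagonist, was the member with the largest difference. Probe A_55_P1962400 was at 2.40, -1.42 and 2.78 in controls and at -2.01, -1.66 and -1.97 in mPGC-1α samples. Control arrays 1 and 3 were high, whereas control array 2 lay just above the highest mPGC-1α array. The means were 1.25 ± 2.33 (SD, n = 3) and -1.88 ± 0.19 (SD, n = 3), 8.76-fold lower in mPGC-1α samples. The difference of -3.13 (SE 0.91, 95% interval -5.17 to -1.09) had an unadjusted p of 0.007 and an adjusted p of 0.68, and the exact permutation p was 0.10, the smallest that 3 against 3 arrays can give. The pairs with the same number differed by -4.41, -0.23 and -4.75, and the slides by -2.32 and -4.75. With the replicate block the adjusted p was 0.12.

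Without control array 2, the array that stood apart in its sex-linked genes, the Il1rn difference was -4.47 (SE 0.22, adjusted p = 0.000312). The same step moved the count of called probes from 0 to 2102 of 39288, of which 1962 (4.99%) were lower in mPGC-1α samples. The second Il1rn probe (A_52_P431159) was at 1.29 on control array 1 and at -0.94, -0.53 and -1.34 in mPGC-1α samples, and its spots on control arrays 2 and 3 were marked as outliers, so no test was made. When these spots were kept, the controls were at 1.29, 0.13 and 1.12, each above every mPGC-1α array, and the difference was -1.78 (adjusted p = 0.66). Both probes thus placed control arrays 1 and 3 above control array 2. When the percentile was taken over unmarked spots only and the replicate number was a block, the difference was -3.05 (adjusted p = 1.91e-08), in a fit that called 3.11% of all probes in the lower direction.

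The array profile of Il1rn was shared by other probes. In a count made after its values were seen, 345 of the 36995 probes measured on all arrays had control arrays 1 and 3 each at least 2 units above every other array, and 1 probe had the opposite profile. These 345 probes included 289 named probes of 283 genes. Of these genes, 200 had a further probe measured on all arrays, and the median difference was -0.08 over those 257 further probes, which lacked the profile. The median of -2.01 over the probes with the profile followed from how they were selected, so the contrast between these medians tests nothing. The second Il1rn probe, with marked spots kept, was also highest on control arrays 1 and 3. Nearest to Il1rn over the 6 arrays, after subtraction of each probe's mean, were Sdcbp (root mean square distance 0.19) and Wdr45b (0.26), against an SD of 2.26 for Il1rn itself. A second Sdcbp probe differed by 0.52 in the opposite direction.

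**Figure D2:**
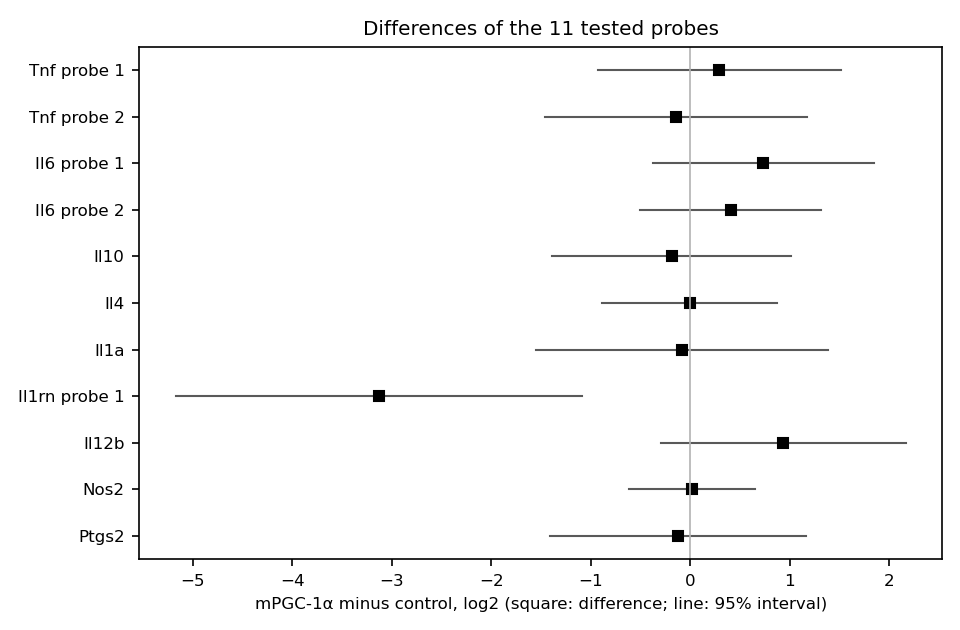
Difference between groups (x axis, mPGC-1α minus control, log2) for the 11 tested probes, with squares for the difference and lines for its 95% interval from limma. Only the interval of Il1rn probe 1, -5.17 to -1.09, leaves out 0, before adjustment for the number of probes tested.

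Nos2, encoding inducible nitric oxide synthase, was at 1.37 and 2.18 on control arrays 1 and 3 and at 1.74, 1.85 and 1.78 in mPGC-1α samples. The spot of control array 2 was marked as an outlier, and its signal corresponded to 2.42. The mPGC-1α arrays lay close together, between the measured controls. The difference was 0.02 (SE 0.28, 95% interval -0.62 to 0.65, adjusted p = 0.99), the narrowest interval of the family.

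Ptgs2, encoding cyclooxygenase-2, was at -1.62, 0.38 and -2.23 in controls and -1.32, -0.96 and -1.56 in mPGC-1α samples. Control array 2 was the highest of all, and the other controls were the lowest. The difference was -0.12 (SE 0.57, 95% interval -1.41 to 1.17, adjusted p = 0.97), and it was 0.65 without control array 2. Between same-numbered arrays it was 0.30, -1.34 and 0.67.

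**Figure D3:**
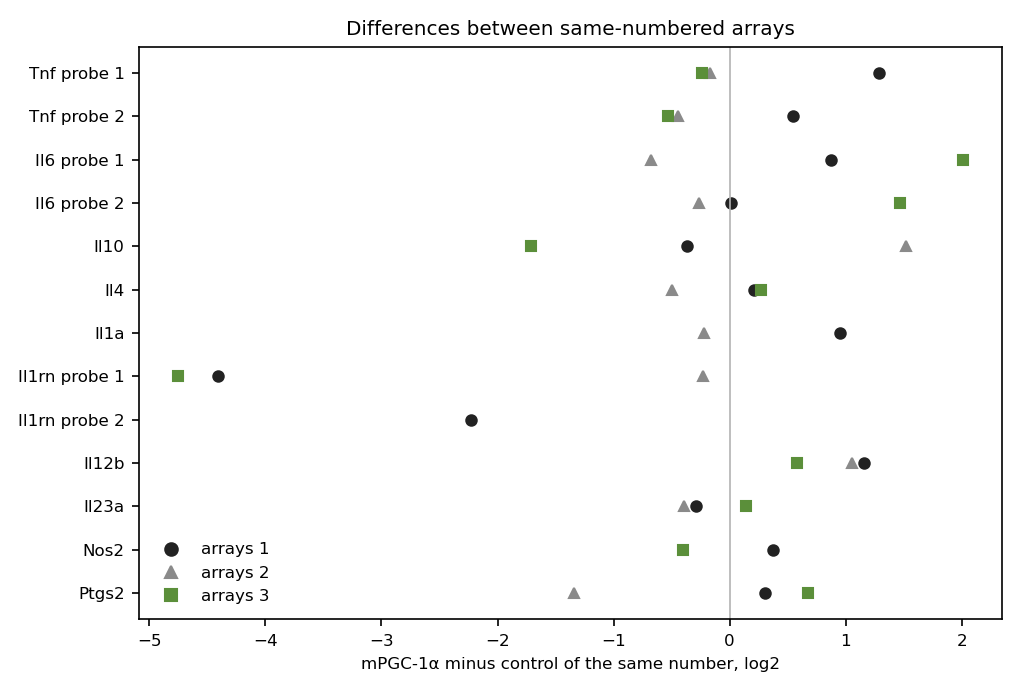
Difference between the mPGC-1α and control array of the same number (x axis, log2) for each probe, with circles for arrays 1, triangles for arrays 2 and squares for arrays 3, leaving out pairs with a marked spot. Il12b was higher in the mPGC-1α array of all 3 pairs and Il1rn probe 1 lower in all 3, at -4.41, -0.23 and -4.75.

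Array profiles were also compared among the members. The Tnf probes lay 0.28 apart by root mean square distance after subtraction of each probe's mean, the Il6 probes 0.34, and the closest members of different genes were Il4 and Ptgs2 at 0.45, both highest on control array 2. Among 15346 named genes that were well above background on all arrays, the nearest to Tnf were Oasl1 (0.21) and Gadd45b (0.24), which were highest on mPGC-1α array 1. The nearest to Il6 were Gpr84 (0.18) and Pop1 (0.20), to Il4 Olfr615 (0.05) and Caskin2 (0.07), to Il12b Patl2 (0.34) and Ucp1 (0.37), and to Ptgs2 Dntt (0.17) and Redrum (0.18). These distances over 6 arrays describe the array profiles only.

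**Figure D4:**
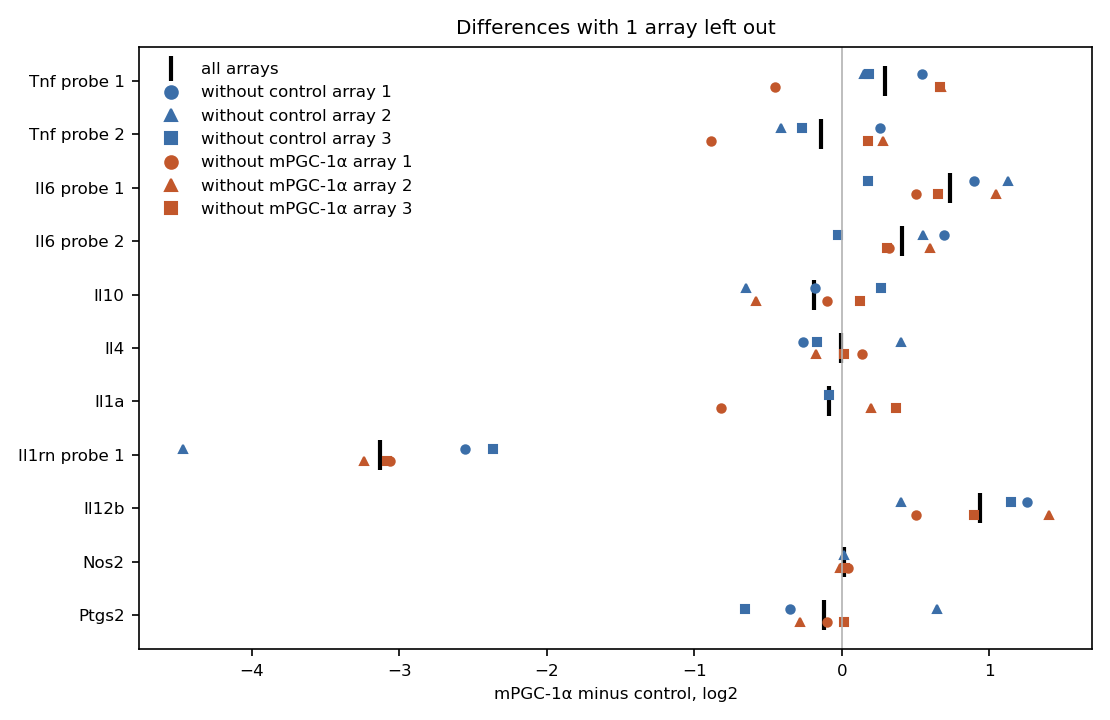
Difference between groups (x axis, mPGC-1α minus control, log2) for each tested probe with all arrays (black bars) and with 1 array left out (blue for a control, orange for an mPGC-1α array), where enough values remained. Il1rn probe 1 stayed between -4.47 and -2.37, whereas Tnf probe 1 ranged from -0.45 to 0.67 and Ptgs2 from -0.66 to 0.65.

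No gene of the 6 lists of related genes passed after adjustment either. Of 19 tested genes among the other cytokines, 10 were higher and 9 lower in mPGC-1α samples, with a median difference of 0.03. Il33, an alarmin of glial cells, was higher by 1.20 (SE 0.48, adjusted p = 0.69) by its brighter probe and differed by -0.03 by the other. Osm, encoding the IL-6 family cytokine oncostatin M, was at -0.56, -4.06 and -3.04 in controls and -3.54, -4.40 and -4.66 in mPGC-1α samples, with control array 1 the highest of all (difference -1.65, SE 0.76). Il1b, encoding IL-1β, was at 1.57, 2.02 and 2.65 in controls and 1.82, 1.66 and 1.40 in mPGC-1α samples (difference -0.45, SE 0.28, adjusted p = 0.76). Its second probe gave -0.52. Il12a, encoding the p35 partner of p40 in IL-12, differed by -0.41 (SE 0.27).

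Of the 14 cytokine receptors tested, 9 were higher and 5 lower, with a median of 0.15. Il6ra, the IL-6 receptor, was at 4.01, 3.95 and 4.12 in controls and 4.70, 4.63 and 4.51 in mPGC-1α samples without overlap (difference 0.59, SE 0.16, adjusted p = 0.68), but its second probe differed by -0.74. Il4ra, the IL-4 receptor, was higher by 0.46 and 0.22 by its probes, without overlap by either. Il10ra differed by 0.29 and -0.52. When the probes of each gene were averaged instead, the receptor median was -0.15, so its sign depended on the choice of probe.

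Among 15 signalling genes downstream of the receptors, 9 were higher and 6 lower, with a median of 0.05, or -0.16 without control array 2. Stat3, the transcription factor that relays IL-6 and IL-10, was at 3.53, 3.57 and 3.54 in controls and 4.04, 4.08 and 4.27 in mPGC-1α samples (difference 0.58, SE 0.16, adjusted p = 0.68), but its second probe differed by -0.46. Socs3, its feedback inhibitor, differed by 0.39, and Stat6, which relays IL-4, by 0.27. All 9 genes for processing and mRNA decay of cytokines were higher, with a median of 0.37 against 0.11 over all genes, of which 64.0% were higher. They included Zc3h12a, an RNase that degrades Il6 and Il12b mRNA, at 0.68 (SE 0.29, adjusted p = 0.69) without overlap. Elavl1, an RNA stabiliser measured on 2 arrays of each group, differed by 0.63 and Zfp36l2, a decay factor, by 0.44. The smallest differences of the list were those of Adam17 (0.08, SE 0.36) and Zfp36 (0.08, SE 0.24). Adam17, Zfp36 and Rhbdf2 also lacked values on some arrays.

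The 15 genes of the prostaglandin pathway had a median of 0.09, with 9 higher and 6 lower. Hpgd, which degrades prostaglandins, was at 1.93, 1.47 and 2.16 in controls and at 1.17 and 0.96 on the mPGC-1α arrays that measured it (difference -0.79, SE 0.27, adjusted p = 0.68). Ptger4, a receptor for prostaglandin E, differed by 0.58 by its brighter probe and -1.41 by the other, and Ptger1 by -0.70. The 12 genes of the nitric oxide and arginine pathway had a median of 0.10, with 7 higher and 5 lower. Arg1, encoding arginase, which uses the same substrate as Nos2, was at -0.64, -0.31 and 1.08 in controls and -2.34, -1.58 and -2.55 in mPGC-1α samples without overlap (difference -2.20, SE 0.45, adjusted p = 0.68). Unlike for Il1rn, control array 2 lay with the other controls for Arg1. The arginine transporter Slc7a1 differed by 0.51 and Gch1, which makes a cofactor of nitric oxide synthases, by 0.32. The constitutive synthases Nos1 and Nos3 differed by -0.08 and -0.30. Without control array 2, Arg1 (-2.38, adjusted p = 0.037), Hpgd (-0.98, adjusted p = 0.046) and Jak2 (-1.24, adjusted p = 0.040) passed, in the fit that called 4.99% of all probes in the lower direction. With all arrays, Jak2 was at 0.01, -1.62 and 0.87 in controls and -0.81, -0.82 and -0.77 in mPGC-1α samples. That difference was -0.56 (SE 0.52, adjusted p = 0.83 by limma), with control array 2 the lowest of all. These Jak2 values come from 1 of its 2 probes. With the percentile over unmarked spots and the replicate block, Arg1 (-2.12, adjusted p = 2.4e-06) and Osm (-1.57, adjusted p = 0.0044) passed as lower, against 3.11% of all probes, and Il33 (1.28, adjusted p = 0.027) and Il6ra (0.66, adjusted p = 0.035) as higher, against 1.11%.

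**Figure D5:**
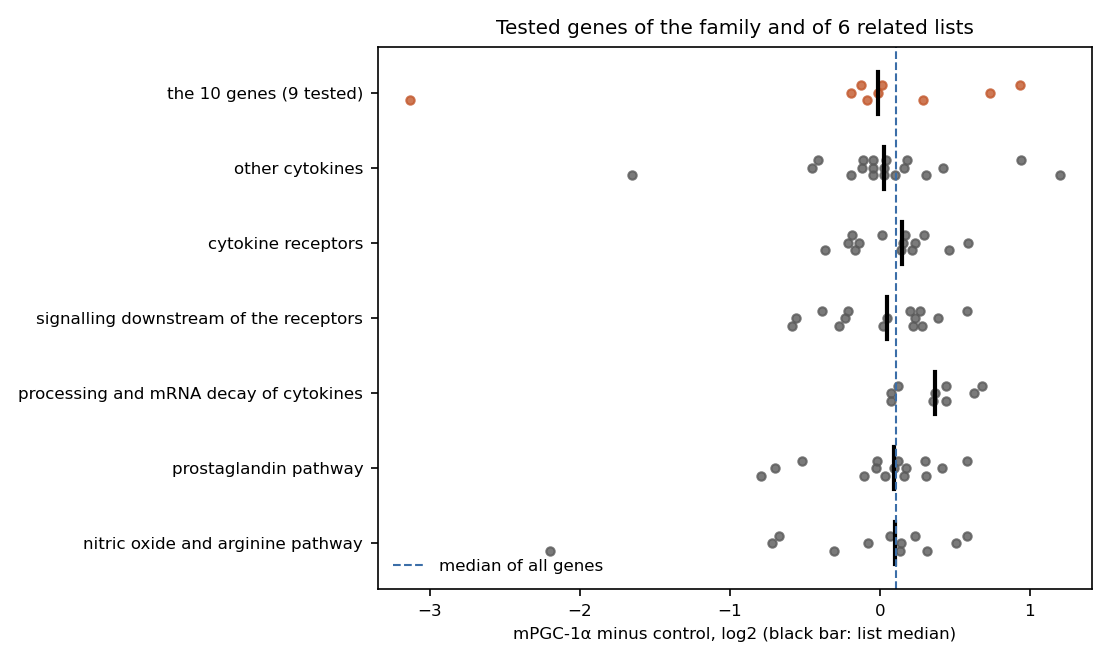
Difference between groups (x axis, mPGC-1α minus control, log2) of each tested gene by its brightest probe, for the family and the 6 related lists, with black bars at list medians and a dashed line at the median of all genes, 0.11. Medians ran from -0.01 for the family to 0.37 for processing and mRNA decay, and Il1rn and Arg1 are the lowest points.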

How the data were processed

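Total RNA of P2RY12-selected microglia had been amplified, labelled and hybridised by the authors, with a separate Agilent array for each sample. The deposited scanner files (Agilent Feature Extraction 11.5.1.1) hold linear intensity values, background-subtracted and not normalized between arrays. The deposited series matrix holds the authors' log2 values after quantile normalization, for 12 of the 13 probes, and was used as an alternative. Probes were named through RefSeq accessions (GRCm38.p6), with 33767 of 56605 matched. Spots marked as outliers were left out, no spot was saturated, and spots of a probe were averaged. The 75th percentile of each array was taken over all its probes that are not controls, marked ones included, because 549 to 4931 spots per array were marked and these were bright. Probes well above background on all measured arrays of a group (at least 2) were tested with limma 3.58.1 (lmFit, eBayes with an intensity trend, R 4.3.3, the data.table package at version 1.17.8), two-sided, with Benjamini-Hochberg adjustment over 40745 probes at 0.05, of which 3750 lacked a value. The genes named are all members with every probe, at most 3 genes per list by unadjusted p, their nearest relatives, and the 2 genes nearest to each member detected on all arrays. The members and lists were chosen with earlier results of these data known. Alternatives are given in the closing section. No label states separate animals per array, so p-values measure the spread between these arrays, whose number limits the precision. Arrays of the same number deviated together from their group means (r = 0.247, 0.224 and 0.171, other pairs -0.337 to 0.035, 36995 probes). Deviations from a group mean cancel within the group, so positive pairs by themselves push the others down. Differences between same-numbered arrays are therefore also given, and the replicate number was a block in an alternative fit. The main fit held the group alone, so its p-values ignore any pairing. Slide 1 held arrays 1 and 2 and slide 2 array 3 of each group. Marked spots numbered 3010 (control) and 4931 (mPGC-1α) on slide 2, against 549 to 1094 per array on slide 1. The procedure was tested on simulated data.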

Additional observations from a re-analysis of the deposited data

How the results depend on the processing

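No count of called probes, genome-wide or among the members, moved under quantile normalization, normexp with quantile normalization, the authors' log2 series matrix, either detection filter, the slide block, no intensity trend, marked spots kept, or the leaving out of any array other than control array 2. The replicate block gave 1 called probe genome-wide and 0 members. With the percentile over unmarked spots, chosen after seeing the data, 0 probes were called, and together with the replicate block 1720, of which 1269 (3.11%) were lower, among them 1 member, Il1rn (-3.05, adjusted p = 1.91e-08). With quantile normalization and the replicate block, also chosen later, its adjusted p was 0.38. Over the arrays left out in turn, 0 to 2102 probes and 0 to 1 member were called, the higher count without control array 2. Il6 (A_55_P1997756), Il1rn and Il12b kept their direction under each setting run. Il4 turned to 0.0051 under quantile normalization, with or without the block, to 0.0016 in the series matrix and to 0.068 with the unmarked percentile, with or without the block. Nos2 turned to -0.089 under quantile normalization (-0.11 with the block), -0.28 in the series matrix, -0.014 with the replicate block and -0.20 with marked spots kept. Il1a turned to 0.37 with the slide or replicate block, which drop array 3 of its measured pair, and to 0.055, 0.35 and 0.29 with the unmarked percentile, that percentile with the block, and quantile normalization with the block. With 1 array left out, differences ranged from -0.45 to 0.67 and -0.89 to 0.28 for the Tnf probes, 0.18 to 1.13 and -0.024 to 0.69 for Il6, -0.65 to 0.27 for Il10, -0.26 to 0.40 for Il4, -0.82 to 0.37 for Il1a, -4.47 to -2.37 for Il1rn, 0.40 to 1.40 for Il12b, -0.014 to 0.042 for Nos2 and -0.66 to 0.65 for Ptgs2. For Nos2, leaving out control array 1 or 3 left too few values to fit, as did control array 1 or 2 for Il1a. Their ranges do not hold these steps and are too narrow to compare with the others. The cause of the turns in direction was not tested. Signal over background limits Il23a and Il10, and marked spots limit Il1a, Nos2 and the second Il1rn probe. Counting marked spots, 11 in place of 8 probes were well above background on all arrays.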
